A study of Caenorhabditis elegans with 4 samples.

Results

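LIN-15B peaks that fell within introns of protein-coding genes on the autosomes of Caenorhabditis elegans, away from annotated promoters, were described from the pooled peak list of a chromatin immunoprecipitation sequencing study. A peak was a member when its summit lay on chromosome I, II, III, IV or V, inside a protein-coding gene but in no protein-coding exon, and outside the window from 500 bp upstream to 100 bp downstream of any protein-coding transcript start. Of 7135 autosomal peaks in the pooled list, and 8636 peaks in all, 1705 were members. The rule used positions only, so scores and replicate recovery were not part of the choice.

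All samples came from L4 larvae of strain OP184, which carries the mutation unc-119(tm4063) on chromosome III and the transgene insertion wgIs184, from which LIN-15B is made as a fusion with GFP. Whole animals, male and female pooled, were used, so signal from different tissues is mixed and tissue markers could not be checked in a list of peaks. The 4 samples form 1 group of 3 biological replicates, the last of which has 2 technical libraries in 1 peak list. No untreated, mutant or tag-free group was compared here, and the labels do not say in which cells the transgene is active or whether untagged LIN-15B was present. The lists hold scores and no read counts, so how deeply each sample was sequenced is unknown.

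LIN-15B is a nuclear protein with a THAP zinc finger and belongs to the synMuv B group, which is known for keeping germline genes off in the soma and for antagonising vulval induction. It is best known from promoters. Introns of the worm are mostly short, yet some hold whole genes for small RNAs: tRNAs and snRNAs with promoters of their own, and snoRNAs, which guide the modification of other RNAs. Introns can also hold the promoter of a shorter transcript of the same host gene.

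Intronic members were mostly weak peaks, and the strongest of them often lay at a small RNA gene nested in the intron. Of the 13 members in the authors' list of reproducible peaks (here called optimal), 4 lay within 100 bp of a snoRNA or snRNA gene. A further 4 lay more than 500 and at most 1000 bp upstream of a start of their own host. Of all members, 3.93% lay at a tRNA, snoRNA or snRNA gene and 6.63% upstream of such a start. Of the 64 members with scores from 20 up to those of the optimal list, 17 lay at a small RNA gene. Only 4 of these 64 (6.25%) lay upstream of a start of the host, near the share of all members. That share is not given here for peaks of other classes. Among all autosomal pooled peaks 2.20% lay at a small RNA gene of these types. The strongest members were not compared in this with strong peaks of other classes. Windows of 100 bases to each side of the summit are shown for the 3 optimal members at nested snoRNA genes and for the highest-scoring member at a nested tRNA gene, because they show how the summit sits on the small RNA gene. All are the plus strand of ce11, read 5′ to 3′ from the RefSeq copy of the WBcel235 assembly.
pxn-1, chrV:8500479-8500679, snoRNA gene ZK994.7 in capitals: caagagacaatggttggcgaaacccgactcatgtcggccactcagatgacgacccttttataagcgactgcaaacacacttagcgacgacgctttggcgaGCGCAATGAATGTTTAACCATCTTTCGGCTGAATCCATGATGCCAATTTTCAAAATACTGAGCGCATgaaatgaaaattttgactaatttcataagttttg
ncx-7, chrIII:9717324-9717524, snoRNA gene C07A9.14 in capitals: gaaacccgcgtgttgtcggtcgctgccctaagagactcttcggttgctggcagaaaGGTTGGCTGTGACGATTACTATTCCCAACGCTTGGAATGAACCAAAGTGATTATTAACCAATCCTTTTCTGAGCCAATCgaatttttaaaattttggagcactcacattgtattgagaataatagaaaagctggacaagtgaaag
cutl-18, chrV:11314083-11314283, start of the snoRNA gene T03F7.8 in capitals: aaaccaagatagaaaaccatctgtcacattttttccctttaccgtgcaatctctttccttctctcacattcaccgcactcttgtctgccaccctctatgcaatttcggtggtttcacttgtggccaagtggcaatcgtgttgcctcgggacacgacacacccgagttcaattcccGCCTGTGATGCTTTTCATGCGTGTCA
twk-48, chrIII:9861520-9861720, tRNA gene WBGene00014445 in capitals: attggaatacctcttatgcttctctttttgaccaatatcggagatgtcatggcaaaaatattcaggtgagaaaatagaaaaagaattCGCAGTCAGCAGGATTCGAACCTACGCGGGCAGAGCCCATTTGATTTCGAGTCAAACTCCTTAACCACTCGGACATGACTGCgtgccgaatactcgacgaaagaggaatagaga

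The summit is the central base of each window. In pxn-1 it coincided with the annotated start of the snoRNA gene, and in ncx-7 it fell inside the snoRNA gene. In cutl-18 it lay 75 bp before the snoRNA gene, and the bases between them hold gttcaattc, a match to GTTCNANNC, the core of the B box that lies inside tRNA genes and recruits RNA polymerase III factors. The tRNA gene in twk-48 is on the minus strand and holds the same core in reverse complement. Among the other kind of optimal member, the windows of pqn-87 and skn-1 are shown because they hold the repeated GAGAGA motif.
pqn-87, chrII:12222642-12222842, GAGAGA runs in capitals: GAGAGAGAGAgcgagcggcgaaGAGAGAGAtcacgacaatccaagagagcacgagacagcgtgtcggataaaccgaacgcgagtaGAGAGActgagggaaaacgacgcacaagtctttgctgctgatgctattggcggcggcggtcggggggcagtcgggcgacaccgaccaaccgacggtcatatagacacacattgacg
skn-1, chrIV:5656073-5656273, GAGAGA runs and a TTTGGCGC element in capitals: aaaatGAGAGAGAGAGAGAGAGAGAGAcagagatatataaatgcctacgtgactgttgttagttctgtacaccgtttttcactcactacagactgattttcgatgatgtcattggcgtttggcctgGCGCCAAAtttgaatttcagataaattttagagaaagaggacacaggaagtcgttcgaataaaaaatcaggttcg

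The skn-1 window also holds, in reverse complement, TTTGGCGC, a form of the E2F element that DREAM-bound promoters carry. GAGAGA, searched on both strands, was present in 232 of the 1705 members (13.6%) and in 4 of the 13 optimal members. All autosomal pooled peaks held it in 15.4% of cases, promoter peaks in 18.6% and intergenic peaks in 17.6%. Of 126966 windows of the same length tiled over the intron territory, 8.12% held it. The 4 E2F forms searched (TTTCCCGC, TTTGGCGC, TTTCGCGC and TTTGCCGC) were in 4.22% of members and 4.36% of tiles. GTTCNANNC, which was searched after the values were seen, was in 7.92% of members, 7.53% of all autosomal pooled peaks and 6.13% of tiles. Without the 67 members at a small RNA gene it was in 6.11% of members. These matches describe the windows and show no binding site.

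Scores of intronic members were low, and few members reached the optimal list. The score is the authors' own signal value for each peak, and the optimal list equals the pooled peaks with scores of at least 28.9, so the optimal share and the score are the same measure. Member scores ran from 11.4 to 67.0 with a median of 13.1, and 77 members (4.52%) reached 20. Of the members, 13 were optimal (0.762%, 95% Wilson interval 0.446 to 1.30), against a background of 4.65% of all autosomal pooled peaks. The same share was 13.4% for promoter peaks, which had a median score of 15.2, and 2.47% for intergenic peaks, with a median of 13.4. Coding exons gave the lowest share, 3 of 1293 peaks or 0.232%. With a narrower promoter window, 250 bp upstream to 50 bp downstream, the optimal share of intronic peaks was 1.25%. With a wider one, 1000 bp upstream to 200 bp downstream, it was 0.547%. Counting starts of every gene type gave 0.540%, and leaving out exons of every gene type gave 0.549%. The intervals cover counting error only, and peaks are not replicates.

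By density the members were close to coding exon and intergenic peaks, whereas optimal members were sparse. The intron territory that the rule allows covers 25.5 Mb, 30.9% of the autosomes, and held 66.8 peaks per Mb. Coding exons held 68.6, intergenic sequence 76.3, exons without coding sequence 140.4 and promoter windows 162.6 peaks per Mb. Counted over optimal peaks alone, introns held 0.510 per Mb and coding exons fewer, 0.159. Intergenic sequence held 1.89, exons without coding sequence 2.57 and promoter windows 21.8.

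**Figure D1:**
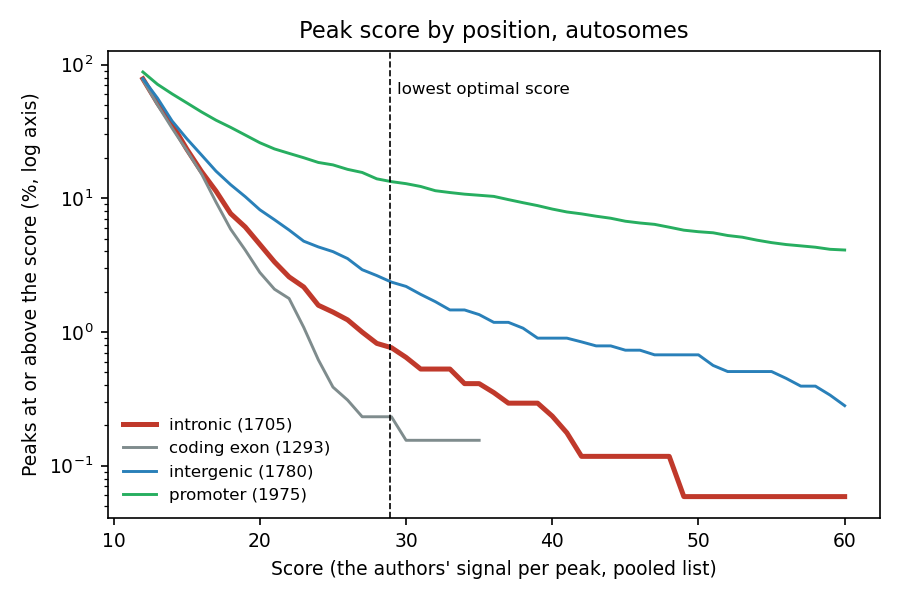
Share of autosomal pooled peaks (vertical log axis, percent) at or above each score (horizontal axis, the authors' signal value) for intronic members, coding exon, intergenic and promoter peaks, with the number of peaks in the legend. The intronic line falls below the intergenic and promoter lines, and 0.762% of members lie right of the dashed line at the lowest optimal score of 28.9.

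Single replicates placed few members among their strongest peaks. With the 383 highest-scoring peaks of a replicate taken as its top-ranked peaks, 17 members (0.997%) had their summit in one in replicate 1, against 4.33% of all autosomal pooled peaks. In replicate 2 there were 16 members (0.938%, background 4.71%) and in replicate 3 there were 19 (1.11%, background 4.53%). The mean was 1.02% ± 0.0896 (SD, n = 3), below the 11.6% ± 0.292 of promoter peaks in 3 of 3 replicates, with a difference of -10.6 percentage points ± 0.289 (exact paired permutation test, two-sided, p = 0.25). Intergenic peaks reached 2.79% ± 0.117, again above the members in 3 of 3 replicates (difference -1.77 ± 0.201, exact p = 0.25). Coding exon peaks, at 0.980% ± 0.365, differed from the members by 0.0370 ± 0.425 percentage points with no common direction (exact p = 1). With 3 replicates the test cannot go below 0.25, so no difference here can pass a threshold of 0.05. The pooled list contains the reads of each replicate, so recovery is not independent of it.

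Members were usually found somewhere in the replicate lists, but seldom in all of them. The full lists of 30000 peaks covered 930 member summits (54.5%) in replicate 1, 1191 (69.9%) in replicate 2 and 956 (56.1%) in replicate 3, a mean of 60.2% ± 8.43. All 3 lists covered 283 members (16.6%), against 21.2% of all autosomal pooled peaks, and 42 members were in none. Promoter peaks were covered in all 3 lists in 33.9% of cases, intergenic peaks in 17.6% and coding exon peaks in 13.6%. Only fath-1 held a member that was top-ranked in all 3 replicates, against 1.68% of autosomal pooled peaks, and 6 members were top-ranked in 2 of them, those of pxn-1, dhc-4, ncx-7, pqn-87, let-363 and haf-9.

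Within ranges of scores below the optimal threshold, the recovery of intronic members was within 1 replicate SD of that of promoter peaks. Of the 64 members with a score from 20 up to the optimal threshold, the full replicate lists covered 85.9%, 87.5% and 89.1%, a mean of 87.5% ± 1.56, and 41 were covered in all 3. The 249 promoter peaks in that range gave 87.8% ± 4.12. From 15 to 20 the means were 71.4% ± 8.84 for 321 members and 71.1% ± 5.56 for 508 promoter peaks. Below 13, where 825 members lie, they were 52.2% ± 7.91 and 53.7% ± 5.75. The optimal members were all covered in all 3 lists, with median ranks of 487, 917 and 266 in replicates 1, 2 and 3. For the 265 optimal promoter peaks the median ranks were 218, 169 and 203. Scores are not matched in this range, since promoter peaks reach 385 and members 67.0.

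Replicate scores of the same member were hardly correlated. Over the 596 members covered in both replicates 1 and 2, Spearman's rho between the replicate scores was -0.0411. It was 0.0718 over 496 members in replicates 1 and 3 and -0.0238 over 605 members in replicates 2 and 3. Promoter peaks gave 0.493, 0.495 and 0.480 for the same pairs, over 937, 923 and 992 peaks. Intergenic peaks, closer to the members in score, gave low values too: 0.0673, 0.253 and 0.165 over 643, 516 and 659 peaks. These values are descriptions across peaks that share libraries and were all selected on the pooled score, and most members span a narrow range of scores.

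The rule was also applied to the replicate lists themselves. Among the top-ranked autosomal peaks, 24 of 323 were intronic in replicate 1 (7.43%, Wilson interval 5.04 to 10.8), 20 of 344 in replicate 2 (5.81%, 3.79 to 8.81) and 20 of 323 in replicate 3 (6.19%, 4.04 to 9.37). The rest of the same lists was 28.4% ± 0.207 intronic, so the top-ranked share was lower in 3 of 3 replicates, with a mean difference of -21.95 percentage points ± 0.727 (exact paired permutation test, p = 0.25). The intronic share climbed with rank, to between 16.7% and 21.0% at ranks 384 to 1000 and between 23.3% and 26.02% at the ranks from there to 3000. In the last 10000 ranks of the 30000 it was 29.7%, 30.2% and 30.2%, next to the 30.9% of autosomal bases that the intron territory takes.

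**Figure D2:**
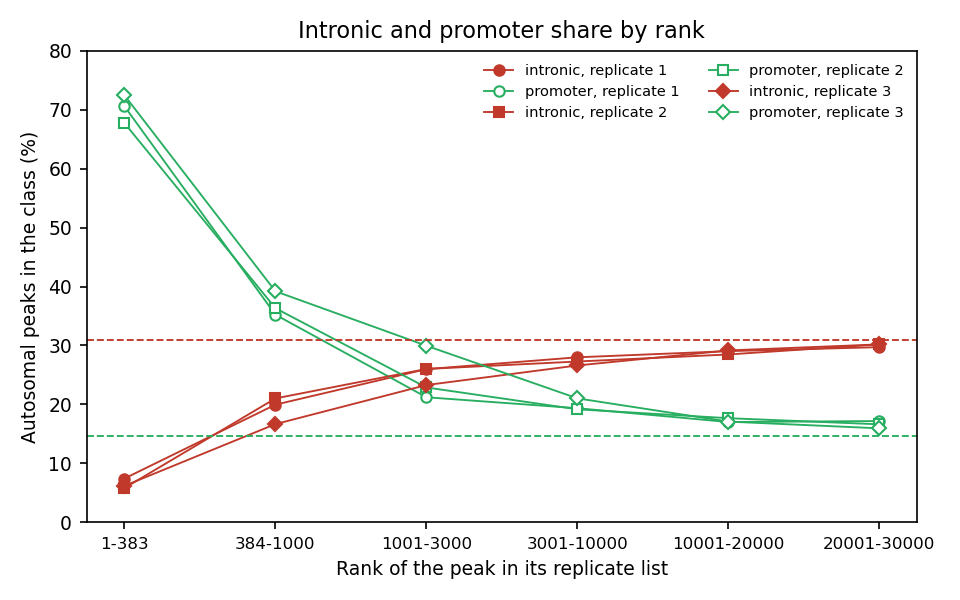
Share of autosomal peaks (vertical axis, percent) that were intronic (red, filled) or in a promoter window (green, open) by rank in each replicate list (horizontal axis), with dashed lines at the share of autosomal bases of each class. The intronic share goes from 5.81 to 7.43% among the 383 strongest peaks to 29.7 to 30.2% in the last 10000 ranks, close to its dashed line at 30.9%.

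The 13 optimal members lay in 13 different genes. The highest score, 67.0, was in fath-1, a fatty acid hydroxylase gene, on chromosome I from 10178259 to 10178598. The summit was in intron 5 of 5, which is 240 bp long, and 589 bp upstream of the start of the neighbouring gene C25A1.16. The covering peaks had ranks 304, 179 and 50 and replicate scores 11.2, 16.9 and 36.4 in replicates 1, 2 and 3. It is the only member with a rank of 383 or better in each list.

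In pxn-1, which encodes a peroxidasin of the extracellular matrix, the member had a score of 48.4 and lay in intron 17 of 21, at the snoRNA gene ZK994.7. Its ranks were 184, 445 and 128. The member of dhc-4, a dynein heavy chain gene, scored 41.1 in intron 31 of 34, at an snRNA gene, with ranks 487, 258 and 126. The member of ncx-7, a sodium-calcium exchanger gene, scored 40.5 in intron 7 of 11, at the snoRNA gene C07A9.14, and its ranks were 2430, 125 and 266. In cutl-18, a cuticlin-like gene, the score was 35.8 in intron 7 of 8, near the snoRNA gene T03F7.8. Its ranks were 455, 718 and 344, and the non-coding RNA gene T03F7.14 also lay within 100 bp of the summit. These 4 introns are 322 to 360 bp long, close to the 340 bp that each pooled peak of this set spans. In pxn-1, dhc-4 and ncx-7 a pair of replicates had the site among the top-ranked peaks, and in cutl-18 only replicate 3 did.

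Upstream of later starts of their own host lay pqn-87, C33B4.4, ptpn-22 and skn-1, each in intron 1. The pqn-87 member, in a gene for a protein with a glutamine- and asparagine-rich domain, scored 39.2 and lay 946 bp upstream of such a start, with ranks 1999, 203 and 218. The non-coding RNA gene Y57A10A.38 and a pseudogene also lay within 100 bp of its summit. The window of the pqn-87 member has a G+C content of 57.7%, against a median of 34.3% over all members. The member of C33B4.4 scored 36.2, lay 504 bp upstream, just outside the promoter window, and ranked 2072, 9521 and 114, so replicate 3 alone held it high. In ptpn-22, a protein tyrosine phosphatase gene, the score was 30.4 and the distance 726 bp, with ranks 1017, 1616 and 386. In skn-1, which encodes the stress-response transcription factor related to mammalian Nrf, the score was 29.5 and the distance 568 bp, with ranks 267, 2919 and 695. Only replicate 1 placed the skn-1 site among its top-ranked peaks.

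The other optimal members had neither feature. W06H8.6 scored 33.7 at the non-coding RNA gene W06H8.16 (ranks 407, 917 and 1388). The member of let-363, the worm TOR kinase gene, scored 33.4 in intron 29 of 31 (ranks 253, 1268 and 248). The member of clpf-1, named for cleavage and polyadenylation, scored 30.4 (ranks 4775, 2076 and 520). F26A3.4 scored 29.7 in an intron of 54 bp, shorter than the peak (ranks 1446, 3803 and 460). Just outside the optimal list was the member of zip-7, a bZIP factor gene, with a score of 28.5. It had no covering peak in replicate 1 and ranked 150 in replicate 2 and 868 in replicate 3.

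**Figure D3:**
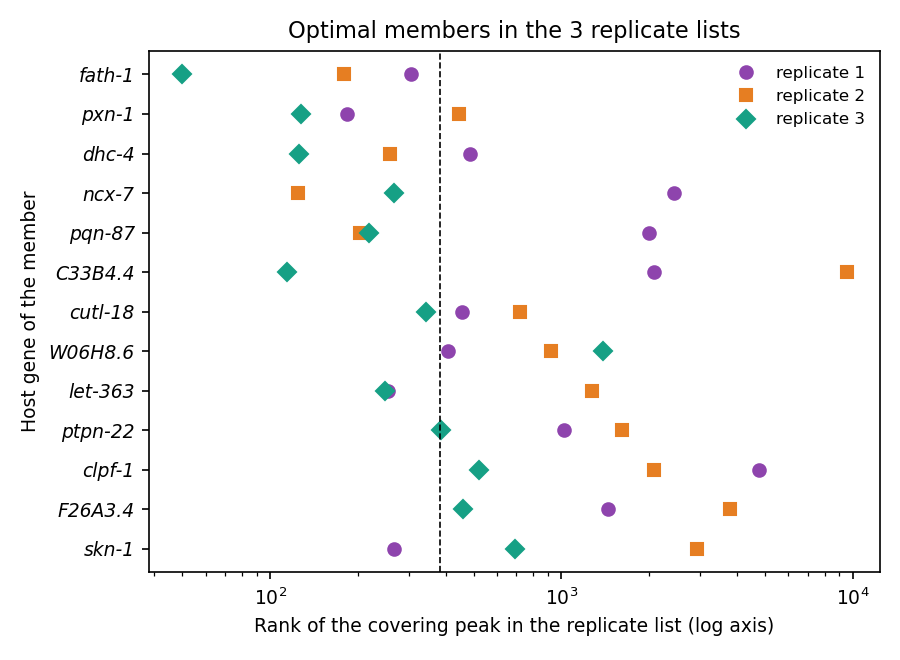
Rank of the covering peak in each replicate list (horizontal log axis, 1 point per replicate) for the 13 optimal members, named by host gene from the highest pooled score at the top; the dashed line is at rank 383. Only fath-1 has all 3 points left of the line, and C33B4.4 spans ranks 114 to 9521.

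Several of the next members by score also lay at non-coding RNA genes. Among all members, 4.57% lay within 100 bp of a gene annotated as ncRNA, against 4.65% of all autosomal pooled peaks. For non-coding genes of any type, pseudogenes included, the shares were 10.3% and 10.6%. The member of ints-8, an Integrator subunit gene, scored 27.9 at rpr-1, the RNA of RNase P, with ranks 740, 655 and 2706. The member of glr-2, a glutamate receptor subunit gene, scored 26.3 at sls-2.5, a gene for an SL2 spliced leader RNA, with ranks 6940, 1988 and 927. In haf-9, an ABC transporter gene, the score was 25.9 at the snoRNA gene ZK484.9, with the non-coding RNA gene ZK484.10 also within 100 bp. Replicates 1 and 3 ranked this member 338 and 230, and replicate 2 had no covering peak. The member of ppat-1 scored 25.8 at the snoRNA gene T04A8.17 and ranked 1842, 904 and 820. By score, haf-9 and ppat-1 were at places 22 and 23 among the members, outside the 20 highest. Within the 20 highest were also F28F8.7 (27.8), zfp-1 (27.7), Y111B2A.12 (26.6) and ppfr-1 (26.5). Of these, ppfr-1 lay at the non-coding RNA gene F16A11.13 and F28F8.7 at a pseudogene. The F28F8.7 summit lay within the gene span but in no intron of its protein-coding transcripts, so it has no intron number. For Y111B2A.12 and zfp-1, a chromatin protein gene related to mammalian AF10, replicate 2 ranked the site at 10018 and 11168, far below the other replicates.

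Small RNA genes were present at 67 of the 1705 members (3.93%): 32 lay within 100 bp of a tRNA gene, 28 of a snoRNA gene and 7 of an snRNA gene. Peaks of other classes also lay at such genes: 2.20% of all autosomal pooled peaks did, 2.42% of intergenic and 1.77% of promoter peaks. Among members the share grew with the score, from 1.82% of the 825 members below 13 to 3.32% from 13 to 15 and 4.67% from 15 to 20. From 20 up to the optimal threshold it was 17 of 64 (26.6%), and among optimal members 4 of 13 (30.8%). The median score was 14.5 at tRNA genes, 18.2 at snoRNA genes and 19.7 at snRNA genes, against 13.04 for the 1638 members with no such gene. No tRNA member was optimal, the highest being that of twk-48, a potassium channel gene, at 24.3 with ranks 3742, 481 and 11409. The non-coding RNA gene K11H3.9 also lay within 100 bp of the twk-48 summit. The small RNA members were covered by the full replicate lists in 67.2%, 70.1% and 83.6% of cases, and the remaining members in 54.03%, 69.8% and 54.9%. The difference was 14.0 percentage points ± 14.2, higher in 3 of 3 replicates (exact paired permutation test, p = 0.25), and in replicate 2 it was 0.308.

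**Figure D4:**
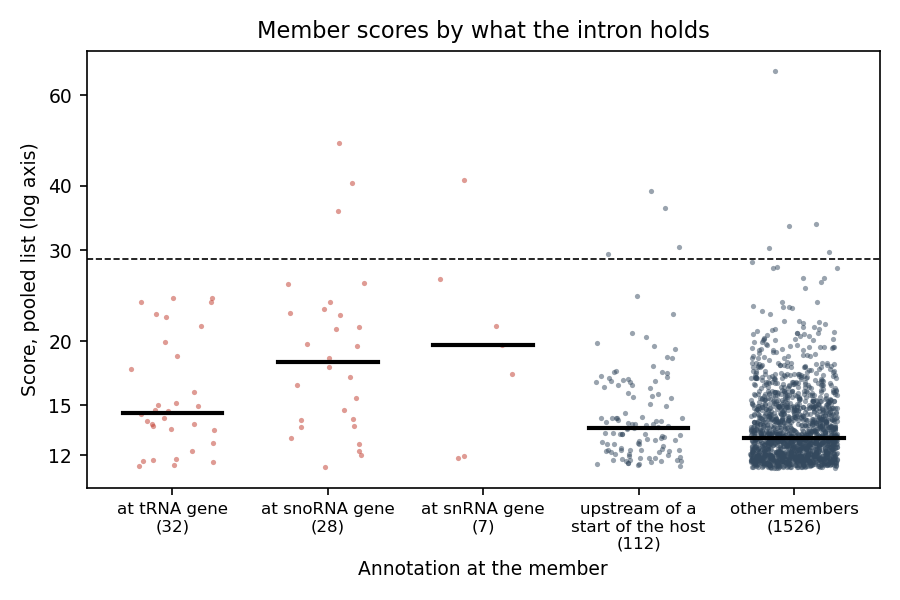
Pooled score (vertical log axis) of every member, grouped by what lies at it: a tRNA, snoRNA or snRNA gene within 100 bp (red), a start of the host more than 500 and up to 1000 bp downstream with no such gene, or neither. Black bars are medians, and the dashed line is the lowest optimal score, 28.9; the medians at the small RNA genes are 14.5, 18.2 and 19.7.

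Counted from the genes, a minority of nested small RNA genes had a peak. The intron territory holds 168 tRNA, 137 snoRNA and 51 snRNA genes. A member summit lay within 100 bp of 33 of the tRNA genes (19.6%, Wilson interval 14.3 to 26.3), 28 of the snoRNA genes (20.4%, 14.5 to 27.95) and 8 of the snRNA genes (15.7%, 8.17 to 28.01). An intron window of 273 bp, the length of a median tRNA gene with both flanks, held a pooled summit in 1.76% of 126966 positions. In the replicate lists the tRNA genes had a summit in 20.8%, 24.4% and 35.7% of cases in replicates 1, 2 and 3. The snoRNA genes had one in 24.1%, 24.1% and 28.5%, and the snRNA genes in 17.6%, 23.5% and 21.6%. The intron windows gave 7.18%, 7.15% and 7.40%. Only 6 tRNA, 9 snoRNA and 4 snRNA genes had a summit in all 3 lists. Small RNA genes exist in near-identical copies, and how reads that match several copies were placed is not given in the sources used here; its part in these values was not tested.

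**Figure D5:**
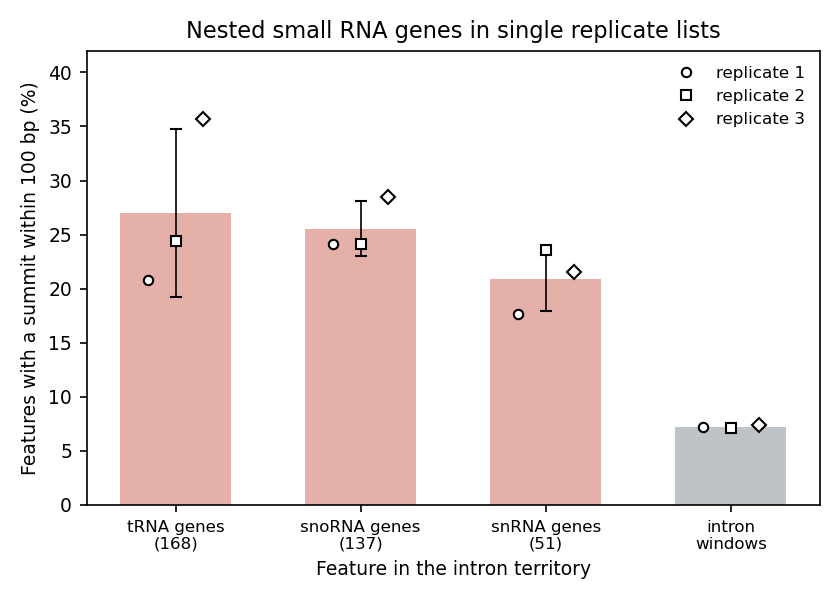
Share of nested small RNA genes with a peak summit within 100 bp (vertical axis, percent) in each replicate list, with the number of genes in brackets, and the same for intron windows of 273 bp. Bars are means, error bars the SD over 3 replicates and symbols the replicates; the gene types have means of 26.98%, 25.5% and 20.9% and the windows lie between 7.15 and 7.40%.

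The position of the summits on the nested genes is bounded by the 100 bp limit that chose the pairs. Over the 69 pairs of a member and a gene wholly within the intron territory, the median summit was 37 bp downstream of the gene's start, with quartiles at -20 and 75 bp. In 33 pairs it was inside the gene, in 22 upstream and in 14 downstream of it. The nested gene was on the strand of the host in 46 pairs (66.7%), and the same held for 245 of all 356 nested small RNA genes (68.8%). The B box core GTTCNANNC was in the windows of 30 of the 32 tRNA members and 5 of the 28 snoRNA members. For the tRNA members this follows from the genes by which they were grouped.

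Members were also counted upstream of later starts of the host, where a shorter transcript begins. The stretches more than 500 and at most 1000 bp upstream of a start of the gene itself took 4.59% of intron bases and held 116 members (6.80%), 98.99 per Mb against 66.8 per Mb over all introns. For starts of any protein-coding gene the stretch took 8.996% of bases and held 199 members (11.7%). Where the nearest such start belonged to the host, 113 members had a median score of 13.6 and 4 were optimal (3.54%). The 1444 members with no start within 1000 bp and no small RNA gene had a median of 12.997, and 4 were optimal (0.277%). Both shares are below the 4.65% of all autosomal pooled peaks. The share of members upstream of a host start was 5.33% below a score of 13, 6.64% from 13 to 15 and 9.03% from 15 to 20. It was 6.25% from 20 up to the optimal threshold, so the high share among optimal members rests on 4 peaks. In the full replicate lists the 113 members were covered more often than the 1444 in 2 of 3 replicates (difference 2.34 percentage points ± 5.06, exact p = 0.75). Among top-ranked peaks the difference was 2.03 ± 1.02, higher in 3 of 3 (exact p = 0.25).

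Members were spread over introns of all positions and lengths. Of the 1699 members with a numbered intron in the longest covering transcript, 432 were in the first intron (25.4%, Wilson interval 23.4 to 27.6), which holds 22.8% of the intron bases. There were 288 in the second, 226 in the third and 753 in later ones. The density was 73.4 per Mb in first introns and 63.5 in later ones, with 4 and 9 optimal members and median scores of 12.9 and 13.1. Split by length, first introns held more per Mb above 1000 bp: 74.6 against 43.1 from there up to 3000 bp, and 83.4 against 63.6 above 3000 bp. In shorter introns they held fewer, 57.6 against 69.4 from over 340 to 1000 bp and 77.0 against 80.3 up to 340 bp.

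Member introns had a median length of 777 bp, with quartiles at 349 and 2651.5, whereas the median autosomal intron had 65 bp. Long introns hold more bases, so bases are the fairer measure: introns of at least 1000 bp held 43.4% of the members and 48.4% of the bases. Introns of at most 340 bp, no longer than a peak, held 24.2% of the members and 19.98% of the bases, and 193 members were in introns of at most 100 bp. The peaks of 859 members reached into a protein-coding exon. Within the intron the summits were even, with 578, 572 and 549 in the 5′, middle and 3′ parts of equal length.

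Along the chromosomes, members were denser in the middle. The stretch between 1/3 and 2/3 of each autosome held 717 members (42.1%) but 27.4% of the intron bases, 102 per Mb against 53.4 outside it. On single chromosomes this share ran from 37.2% on III to 45.0% on V, above that of the bases on each of the 5. Promoter peaks were at 182 per Mb in the middle and 151 outside, and intergenic peaks at 101 and 65.3. Members per Mb ranged from 59.4 on chromosome V to 74.9 on chromosome II, with 2 or 3 optimal members on each.

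Windows at the members were richer in G and C than the intron territory as a whole. Those windows can run into exons, which the intron bases leave out, and the part of this was not tested. The median G+C content of the windows was 34.3%, against 31.9% over all intron bases and 36.8% in promoter peaks, and it was 40.5% for scores from 20 up to the threshold and 42.3% for the 13 optimal members. Windows at small RNA genes had 45.8%. The summit of 729 members (42.8%) was in soft-masked sequence, the repeats and low-complexity stretches that the assembly marks, compared with 54.3% of intron bases. It was masked in 44.1% of members below 13 and in 16 of the 64 from 20 up to the threshold. The run TTTTTTTT was in 23.1% of members and 31.3% of tiles. Base composition also affects how well fragments are sequenced, and its part in the scores was not tested.

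Host genes were long, and most had a single member. The members lay in 1404 host genes, counting the innermost where genes are nested, of which 1193 had 1 member, 152 had 2 and 59 had 3 or more. The median host was 5138.5 bp long, against 2065.5 bp for all autosomal protein-coding genes with intron territory. Genes with more intron bases have more room for members, and a median weighted by bases is not given here. The most members, 8, were in vhp-1, a MAP kinase phosphatase gene, in introns 1, 2 and 4, with scores from 12.1 to 22.5. They are not all separate sites, since the peaks from 5337000 to 5337339 and from 5337225 to 5337564 overlap. No replicate list covered the second of these, and only 1 of the 8 was covered in all 3 lists. The 6 members of ppfr-1, a protein phosphatase 4 regulatory subunit gene, scored 11.5 to 26.5, and 1 of them ranked 985, 7065 and 182. The cadherin gene hmr-1 had 6 with scores of 11.6 to 17.1, DH11.5 had 6 from 11.7 to 16.8 and zfp-1 had 5 from 11.9 to 27.7, a number shared by mbk-2, spat-2, par-1, sos-1 and lin-42. None of the members of vhp-1, ppfr-1, hmr-1, DH11.5 and zfp-1 was optimal.

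Hosts were also counted in lists of genes, from those tied to LIN-15B to large genes of muscle and neurons. Overall 1419 of 16268 autosomal protein-coding genes with intron territory held a member (8.72%), at 65.9 members per Mb. Of 21 synMuv and DREAM genes 1 did: lin-35, the worm retinoblastoma gene, with a score of 12.3 and a covering peak in replicate 2 alone, at rank 938. Of 17 germline RNA regulator genes 1 did, the P granule gene pgl-3, with a score of 12.7. None of 65 ribosomal protein genes held one, and their introns have on average 0.161 kb of eligible sequence per gene, against 1.59 kb over all genes.

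Muscle genes held members in 8 of 18 cases (44.4%) and neuronal genes in 12 of 25 (48.0%). Their introns are large, 7.83 and 9.80 kb per gene, and per Mb they held 99.3 and 77.5 members. The highest muscle members were in unc-52, the perlecan gene, at 17.2, in unc-89, which encodes a giant protein of the sarcomere M-line, at 15.7, and in unc-15, the paramyosin gene, at 14.4. Among neuronal genes they were in unc-43, the CaM kinase II gene, at 16.9, in cam-1, a Ror receptor kinase gene, at 16.6, and in unc-5, a netrin receptor gene, at 15.3. None of these was optimal or top-ranked in a replicate. Of 14 signalling genes 4 held one, at 35.8 per Mb, with mpk-1, the ERK kinase gene, highest at 14.9.

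Transcription factor genes held members in 34 of 333 cases (10.2%), at 75.9 per Mb and with a median score of 12.8. The list leaves out some factor genes, zip-7 among them, and of its genes skn-1 alone held an optimal or top-ranked member. The FOXO gene daf-16 had 4 members with a highest score of 15.3, at rank 728 in replicate 1 and with no covering peak in replicates 2 and 3. The zinc-finger gene lin-29, which acts in the larva-to-adult switch, had 2, the higher at 15.9 with ranks 22824, 1810 and 4311. For the FoxA gene pha-4 the single member scored 11.8 and was covered in replicate 3 alone.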

How the data were processed

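Peaks of LIN-15B in 3 biological replicates and their pool were analysed. Per the deposited descriptions, the authors called peaks with background on each replicate and on the pool against a control alignment, and an irreproducible discovery rate test gave the optimal list. The deposited lists hold the authors' signal value per peak, here called the score, whose scale is not stated. Which aligner and caller were run, and with which cutoff, is not given in the sources used here; depth is unknown. The ce11 lists were used; the ce10 lists were not used here.

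Each of the 1705 member peaks is 340 bp wide with the summit at the midpoint. Positions came from Ensembl release 115 on WBcel235, which has the coordinates of ce11. The host is the innermost protein-coding gene, and introns are numbered in its longest covering transcript; 6 members had no numbered intron. Sequence is shown for a few members, and 1 further window is not reported here. Recovery means that the member's summit lies inside a peak of the replicate list. Shares of replicates were compared by exact paired permutation tests, two-sided, with 95% Wilson intervals for counting error. The replicates are labelled biological without further detail, so their spread may be technical in part.

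Named genes were the hosts of the 20 highest scores, of all optimal members and of the first member outside, the 5 hosts with most members (the last place, tied between genes, went to the host with the highest score), and host-list members with an optimal or top-ranked peak; other list members are those with the highest scores. Genes haf-9, ppat-1, twk-48, lin-29, daf-16, pha-4 and the single hosts of short lists were picked with their values in view. The members and lists were chosen with earlier results of these data known. The position and recovery steps were tested on simulated data. Alternatives were other promoter windows, starts and exons of every gene type, the peak midpoint, the upper 50 percent by score, 1 bp overlap, the top 1000 or 5000 peaks, the full lists and leaving out replicates. Python 3.11.15 with numpy 2.4.6, scipy 1.17.1, pandas 2.3.3 and matplotlib 3.10.9 was used.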

Additional observations from a re-analysis of the deposited data

How the results depend on the processing

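The members remained below promoter peaks in recovery, and intronic peaks below the rest of each list among top-ranked peaks, under each of the 15 and 6 alternatives run for these results. The number of members stayed between 1462 and 1833 except for the upper 50 percent of peaks by score, which left 714 members, a median score of 15.3 and an optimal share of 1.82%, since it removes weak peaks by construction. Keeping only optimal members that were top-ranked in both other replicates gave 0.0587 to 0.235% as each replicate was left out, 1, 3 or 4 members, lowest without replicate 3. Over pairs of replicates the top-ranked recovery was 0.968 to 1.06% and the intronic share 6.003 to 6.81%. A promoter window of 250 bp upstream to 50 bp downstream gave an optimal share of 1.25%. One of 1000 bp upstream to 200 bp downstream gave an optimal share of 0.547% and an intronic share of top-ranked peaks of 3.95%. The share in first introns was 34.7% when the first intron of any host transcript counted, a rule that can only raise it. With the wider promoter window it was 23.2%, and the cause was not tested. The share of bases in first introns was not recounted for either. Without the 67 members at tRNA, snoRNA or snRNA genes, an alternative chosen after seeing the data, the optimal share was 0.549%, the median score 13.04 and the top-ranked recovery 0.814%. No paired analysis was possible because the samples form only 1 group; the exact tests pair values from the same replicate list. The unknown depth limits what a missing peak in a replicate can show, and 3 replicates cannot give an exact p below 0.25.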
